A study of Homo sapiens with 4 samples.

Results

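Divergent and microRNA host long noncoding RNAs (lncRNAs) were examined in the nuclear RNA of MDA-MB-231 cells that overexpressed the m6A reader YTHDC1. The members were all transcripts of the deposited transcript table whose gene symbol ends in -DT, the suffix for a divergent transcript, or begins with MIR and ends in HG, the suffix for a microRNA host gene. The rule found 169 divergent transcripts of 62 genes and 123 microRNA host transcripts of 29 genes, in all 292 of 75165 listed transcripts and 91 of 20298 listed genes. The rule reads gene symbols and no measured value.

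RNA immunoprecipitation sequencing (RIP-seq) recovers the RNA bound to a protein with an antibody and compares it with the RNA of the starting lysate. The study holds 2 Flag-YTHDC1 immunoprecipitates (IP) and 2 inputs. All 4 libraries came from MDA-MB-231, an established triple negative breast cancer line, transduced with lentivirus carrying 3x Flag-YTHDC1 at a multiplicity of infection of 4 and kept in 2 µg/ml puromycin, so the inputs also carried the extra YTHDC1, which the plasmid drives from a CMV promoter. The selection time is taken as 4 days, which the study's methods state for other MDA-MB-231 cells and not for these. The cells were exposed 3 times to 120000 µJ/cm2 of ultraviolet light from a 254 nm lamp, nuclei were isolated, and lysate with 500 µg of protein met 5 µg of anti-Flag antibody, while lysate with 50 µg of protein was kept as input. The labels call the input total RNA, although by the protocol it was saved from lysed nuclei. The labels do not say whether the replicates were separate cultures, and the study's supplement calls them biological replicates.

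The only measurement used here is the authors' mean normalized read count of a transcript, taken across the 4 libraries. It mixes IP and input in one number, has no standard deviation and no n of its own, and does not show whether a member was richer in one or the other. Binding to YTHDC1 is therefore not described, and the comparison of IP with input was not analysed here, because the columns of the authors' own comparison were left aside and no value per library was at hand. The mean counts reads and is not divided by transcript length, so an order of values below is an order of read counts and not of RNA molecules. The depth of each library is unknown from this table. No test was run, because transcripts and genes of the same libraries are not replicates.

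Many human promoters are transcribed in both directions, and the RNA that runs away from the protein-coding gene is named after that gene with the suffix -DT. Such RNAs are often short-lived, since the nuclear exosome with its adaptor complexes degrades them near the site of transcription. A microRNA host gene instead makes a long primary transcript from which DROSHA and DGCR8 cut a hairpin in the nucleus, which DICER1 then cuts to the mature microRNA. METTL3 marks primary microRNAs with m6A, and YTHDC1 is the m6A reader of the nucleus.

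The seed, bases 2 to 8 of a mature microRNA, pairs with its target RNAs, so hosts that carry the same seed are shown first. RefSeq (GRCh38.p14) matched all 29 host genes, and 28 of them, all but MIR378D2HG, matched at least 1 annotated microRNA gene on the same strand. Of these, 14 held 1 microRNA gene and 14 held more. Together they held 54 microRNA genes with 96 mature entries of 93 names and 75 different seeds. Only 3 seeds occurred in more than 1 host, the let-7 seed GAGGUAG in MIR100HG, MIRLET7A1HG, MIRLET7BHG and, as miR-4458, MIR4458HG, UAUACAA of the opposite let-7 arm in MIRLET7A1HG and MIRLET7BHG, and AUUGCAC in MIR17HG and MIR302CHG. The sequences with these 3 seeds follow, 5′ to 3′ with the seed in capitals. The sequence of let-7a-5p occurs in 3 hosts, also at chr9:94175962-94175983 in MIRLET7A1HG and chr22:46112752-46112773 in MIRLET7BHG, and that of let-7a-3p also at chr22:46112800-46112820 in MIRLET7BHG.
hsa-let-7a-5p (in MIR100HG, chr11:122146568-122146589, minus strand): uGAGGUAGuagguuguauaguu
hsa-let-7f-5p (in MIRLET7A1HG, chr9:94176353-94176374, plus strand): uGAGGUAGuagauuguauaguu
hsa-let-7d-5p (in MIRLET7A1HG, chr9:94178841-94178862, plus strand): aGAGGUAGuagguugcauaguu
hsa-let-7b-5p (in MIRLET7BHG, chr22:46113691-46113712, plus strand): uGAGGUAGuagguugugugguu
hsa-miR-4458 (in MIR4458HG, chr5:8460933-8460951, plus strand): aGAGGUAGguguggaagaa
hsa-let-7a-3p (in MIRLET7A1HG, chr9:94176013-94176033, plus strand): cUAUACAAucuacugucuuuc
hsa-let-7b-3p (in MIRLET7BHG, chr22:46113745-46113766, plus strand): cUAUACAAccuacugccuuccc
hsa-let-7f-1-3p (in MIRLET7A1HG, chr9:94176409-94176430, plus strand): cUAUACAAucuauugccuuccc
hsa-miR-92a-3p (in MIR17HG, chr13:91351361-91351382, plus strand): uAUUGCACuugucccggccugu
hsa-miR-367-3p (in MIR302CHG, chr4:112647877-112647898, minus strand): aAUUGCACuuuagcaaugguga

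Mature microRNAs encoded in 8 hosts are shown next as examples. Only the pair from MIR222HG shares a seed within this set.
hsa-miR-663a (in MIR663AHG, chr20:26208243-26208264, minus strand): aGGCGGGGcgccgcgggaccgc
hsa-miR-4435 (in MIR4435-2HG, chr2:111321061-111321082, minus strand): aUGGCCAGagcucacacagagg
hsa-miR-22-3p (in MIR22HG, chr17:1713914-1713935, minus strand): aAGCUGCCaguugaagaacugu
hsa-miR-100-5p (in MIR100HG, chr11:122152275-122152296, minus strand): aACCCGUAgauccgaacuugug
hsa-miR-34a-5p (in MIR34AHG, chr1:9151735-9151756, minus strand): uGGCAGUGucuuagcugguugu
hsa-miR-210-3p (in MIR210HG, chr11:568112-568133, minus strand): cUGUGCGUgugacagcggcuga
hsa-miR-17-5p (in MIR17HG, chr13:91350618-91350640, plus strand): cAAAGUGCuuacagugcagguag
hsa-miR-221-3p (in MIR222HG, chrX:45746180-45746202, minus strand): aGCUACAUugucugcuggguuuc
hsa-miR-222-3p (in MIR222HG, chrX:45747036-45747056, minus strand): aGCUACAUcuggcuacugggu

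The divergent genes are defined by position, so the geometry of their promoters was read from RefSeq. All 62 divergent genes were matched, 58 by symbol and 4 by an older symbol. Promoter windows, each running from 250 bases before a start to 50 bases after it, were found for 53 of them, and for 51 both the divergent gene and its partner, the gene it is named after, had one. All 51 pairs lay on opposite strands. The starts were 0 to 300 bases apart and pointed away from each other in 39 pairs, and the median distance was 150.0 bases (quartiles 97.5 and 258.5). In 3 pairs, SEPTIN9-DT, EDIL3-DT and MMADHC-DT, the starts overlapped by up to 417 bases. Only ODC1-DT and GARS-DT started more than 1000 bases from the nearest annotated start of their partner, at 1401 and 16956 bases.

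The windows of the 3 divergent genes with the largest read counts whose window also holds the partner's start are given next, 5′ to 3′ on the strand of the divergent gene in GRCh38.p14. Capitals run from the start of the partner, which is read in the opposite direction, to the start of the divergent gene, so they mark the stretch that lies upstream of both genes.
GMDS-DT (chr6:2245503-2245802, plus strand): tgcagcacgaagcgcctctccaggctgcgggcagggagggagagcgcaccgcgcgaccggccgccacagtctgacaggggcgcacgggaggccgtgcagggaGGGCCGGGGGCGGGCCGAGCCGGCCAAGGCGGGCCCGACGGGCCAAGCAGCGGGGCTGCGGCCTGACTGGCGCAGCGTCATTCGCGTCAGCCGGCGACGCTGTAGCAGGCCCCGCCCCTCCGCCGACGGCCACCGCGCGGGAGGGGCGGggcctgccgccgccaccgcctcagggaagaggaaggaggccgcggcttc
MAFG-DT (chr17:81927579-81927878, plus strand): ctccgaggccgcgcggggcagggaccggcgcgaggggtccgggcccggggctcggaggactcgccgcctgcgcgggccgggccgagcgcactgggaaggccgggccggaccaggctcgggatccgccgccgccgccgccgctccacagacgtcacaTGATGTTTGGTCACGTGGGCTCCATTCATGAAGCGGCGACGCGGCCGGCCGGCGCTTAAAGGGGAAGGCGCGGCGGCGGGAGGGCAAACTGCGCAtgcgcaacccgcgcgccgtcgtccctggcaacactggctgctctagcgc
RAB30-DT (chr11:83071816-83072115, plus strand): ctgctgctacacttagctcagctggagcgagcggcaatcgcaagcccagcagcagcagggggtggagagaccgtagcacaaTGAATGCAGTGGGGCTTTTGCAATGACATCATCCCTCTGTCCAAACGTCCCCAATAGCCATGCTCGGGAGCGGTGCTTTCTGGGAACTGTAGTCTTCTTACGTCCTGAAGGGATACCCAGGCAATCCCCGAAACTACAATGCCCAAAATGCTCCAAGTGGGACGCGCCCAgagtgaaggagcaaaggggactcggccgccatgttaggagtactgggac
This stretch separates the starts by 148 bases in GMDS-DT, by 94 in MAFG-DT and by 169 in RAB30-DT. The GMDS-DT window was 78.3% G and C with 41 CpG sites and the MAFG-DT window 75.7% with 47, whereas the RAB30-DT window was 56.7% with 13.

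The first RefSeq window of each gene was then searched for 4 core promoter motifs on both strands. The GC box, searched as GGGCGG, was present in 43 of 53 divergent windows (81.1%), in 11 of 28 microRNA host windows (39.3%), in 25.4% of 11462 windows of all lncRNA genes and in 44.6% of 27305 windows of all genes. The ETS core, searched as CCGGAA, was in 23 divergent windows (43.4%) and 6 host windows (21.4%), against 10.4% of the lncRNA windows and 17.6% of all windows. The CCAAT box, searched by those letters, was in 17 divergent windows (32.1%) and 14 host windows (50.0%), against 34.8% and 35.7%. The TATA box, searched as TATAAA, was in 1 divergent window, that of ODC1-DT (1.89%), and in no host window, against 15.2% and 12.0%. No motif contains another, although matches may share bases. A match is a string and not a bound site, and no match says only that the letters are not in the window. With starts a median of 150 bases apart, most paired divergent windows also hold the start of the protein-coding partner. Motif shares and base composition of divergent windows therefore cannot be assigned to the divergent gene alone. Windows of protein-coding genes were not compared as a separate set.

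Base composition set the groups in the same order as the GC box, and its part in the motif shares was not tested. The median window was 69.7% G and C in divergent genes, 56.7% in microRNA hosts, 50.0% in all lncRNA genes and 58.3% in all genes. The median number of CpG sites was 32 in divergent windows, 11 in host windows, 5 in lncRNA windows and 14 in all windows. Within the divergent genes the window of GARS-DT (43.3% G and C, 2 CpG sites) and that of RELA-DT (80.0%, 51 CpG sites) were far apart. The GARS-DT start lay 16956 bases from that of its partner, and the highest divergent window was 85.3% G and C. The plot of distances and motifs gives both results.

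**Figure D1:**
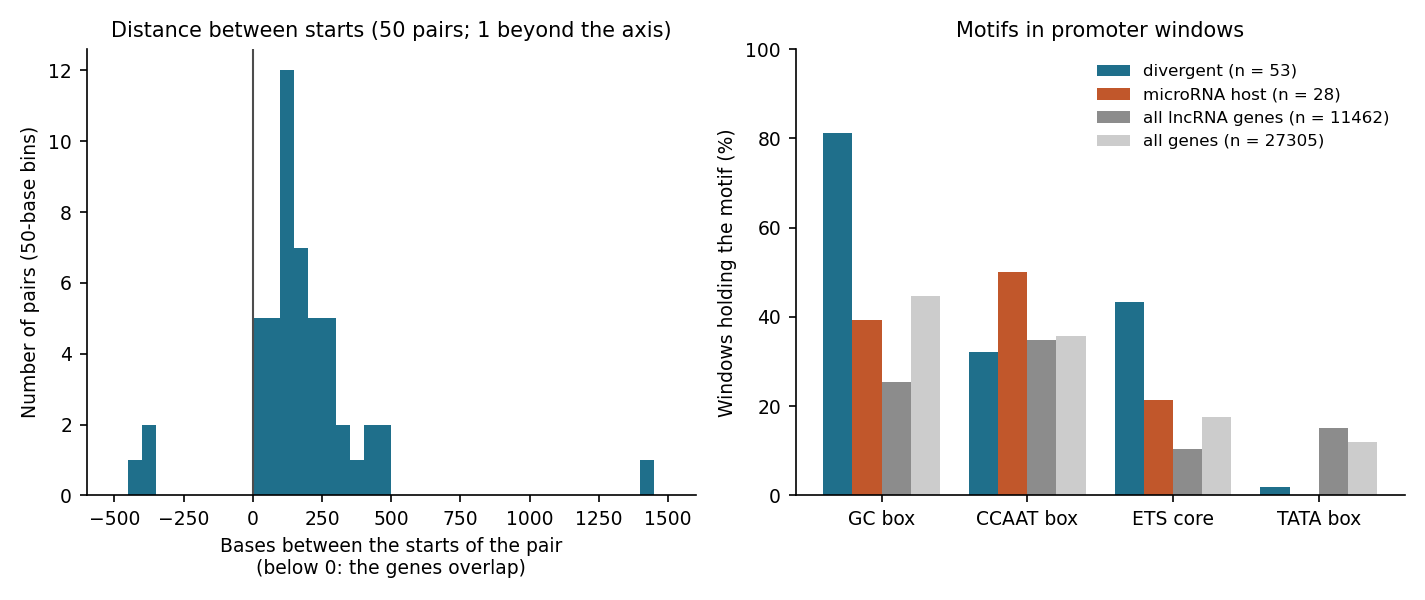
Left, number of pairs against the bases between the starts of a divergent gene and its partner, in 50-base bins, with pairs below 0 overlapping and 1 pair beyond the axis (GARS-DT, 16956 bases); most pairs lie between 0 and 300. Right, percent of promoter windows that hold each motif in divergent genes, microRNA hosts, all lncRNA genes and all genes; the GC box bar of the divergent genes stands at 81.1%.

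Divergent transcripts had low read counts. Their median mean count was 18.7 (quartiles 9.22 and 37.4, range 2.93 to 642), close to the 15.7 of all 5795 lncRNA transcripts and below the 44.2 of all listed transcripts. Only 19 of 169 (11.2%) reached 100, against 10.9% of lncRNA transcripts and 34.6% of all transcripts. Summed over its listed transcripts, the median divergent gene had 41.0 reads, against 19.1 for all 3638 lncRNA genes and 227 for all genes. Of 62 divergent genes 19 reached 100 (30.6%), against 16.6% of lncRNA genes and 59.8% of all genes. Below 10 stayed 13 divergent genes, against 1082 of 3638 lncRNA genes and 2631 of all 20298 genes. All values are the authors' means over the 4 libraries.

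MicroRNA host transcripts spread more widely. Their median was 28.4 (quartiles 10.5 and 81.6), with a range from 3.66 to 27451 (MIR663AHG-312). Of 123 transcripts, 24 (19.5%) reached 100, against 10.9% of lncRNA transcripts and 34.6% of all transcripts. Most of these 24 were forms of MIR4435-2HG, which had 41 listed transcripts, so the share rests largely on that gene. The median host gene had 72.3 reads in sum, against 19.1 for lncRNA genes and 227 for all genes. Of 29 hosts 14 (48.3%) reached 100, against 16.6% of lncRNA genes and 59.8% of all genes. Below 10 stayed 4 hosts, against 1082 of 3638 lncRNA genes and 2631 of all 20298 genes. The 62 divergent genes together held 0.0240% of the summed means of the table, and the 29 host genes 0.131%. The host total rested on 2 genes, as MIR663AHG alone gave 75.8% of it and MIR663AHG with MIR4435-2HG 90.6%, whereas the leading divergent gene gave 12.6% of the divergent total.

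**Figure D2:**
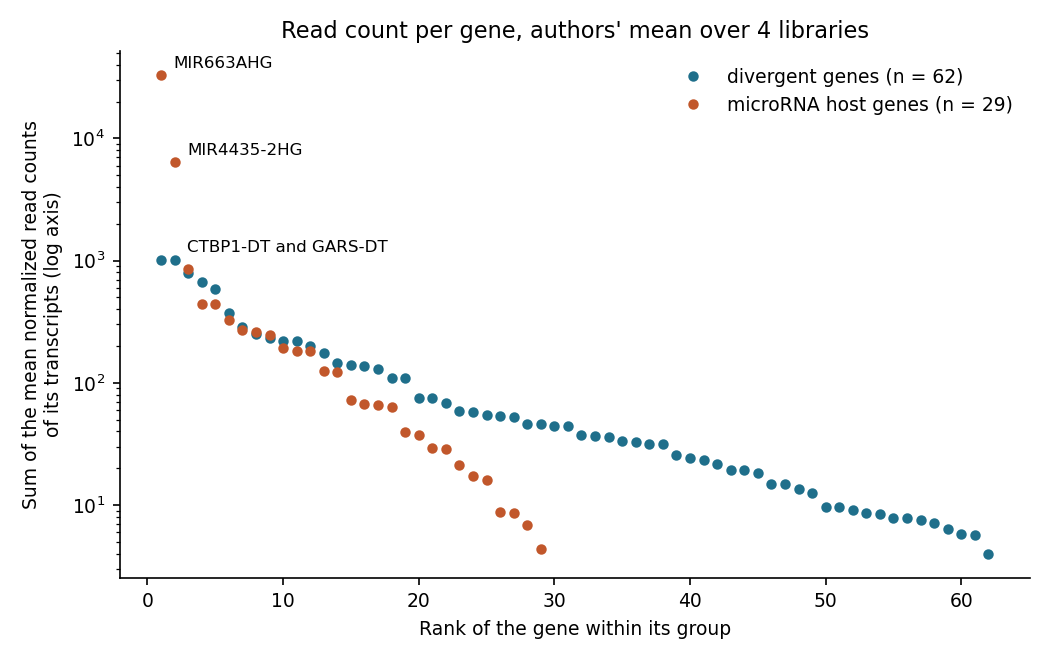
Summed mean normalized read count per gene (log axis) against the rank of the gene within its group, for 62 divergent and 29 microRNA host genes; each point is the authors' mean over 4 libraries and has no error. MIR663AHG and MIR4435-2HG stand above all other members. From rank 10 downward the host genes lie below the divergent genes of the same rank. The groups differ in size, so the same rank is not the same position within each group. The median gene sum was 72.3 in the host genes and 41.0 in the divergent genes.

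CTBP1-DT and GARS-DT led the divergent genes with almost the same sums, 1010 and 1007. CTBP1 is a transcriptional corepressor and GARS1 is the glycyl-tRNA synthetase. The CTBP1-DT reads fell on 7 transcripts, of which CTBP1-DT-205 had 536, CTBP1-DT-206 had 256 and CTBP1-DT-203 had 143. GARS-DT was divided over 20 transcripts, the most of any divergent gene. Its leading form, GARS-DT-201, had 315 reads (31.3% of the gene) and is annotated as a retained intron, as are GARS-DT-202 (37.2), GARS-DT-240 (17.2) and GARS-DT-216 (12.7).

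GMDS-DT, beside the gene of GDP-mannose dehydratase, an enzyme of GDP-fucose synthesis, followed with 797 reads on 14 transcripts, of which GMDS-DT-201 had 303 (38.0%). BAIAP2-DT, beside the gene of an adaptor that links membranes to actin, had 665 reads, nearly all on BAIAP2-DT-202 (642, 96.5%), the highest single divergent transcript. MAFG-DT, beside the gene of a small MAF transcription factor, had 372 reads on 1 transcript. The leading genes thus differ in how the reads are divided, from 1 form in MAFG-DT to 20 in GARS-DT.

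RAB30-DT (286 reads), beside a Golgi GTPase gene, showed no dominant form, as RAB30-DT-210 had 86.2 and RAB30-DT-208 had 77.6. NIPBL-DT, beside the cohesin loader gene, had 253 reads and EIF3J-DT, beside a translation initiation factor gene, had 233. APCDD1L-DT had 221 reads, with the retained intron form APCDD1L-DT-207 at 107 (48.1%). NDUFA6-DT, beside a gene of respiratory complex I, had 219 and CCDC84-DT had 200.2. PCCA-DT (174), beside the gene of a propionyl-CoA carboxylase subunit, MAN1B1-DT (144), beside an endoplasmic reticulum mannosidase gene, and OSER1-DT (139.6) followed. The lowest divergent gene was AFDN-DT with 3.98 reads on 1 transcript, and its partner AFDN encodes the junction protein afadin.

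Of the 62 divergent genes 30 had 1 listed transcript (48.4%), a share below the 76.7% of lncRNA genes and above the 37.7% of all listed genes. In the 32 genes with more than 1, the leading form held a median 53.7% of the reads. The median was 58.4% in lncRNA genes and 59.8% in all genes with more than 1. The leading form held more than 50% in 19 of the 32, against 605 of 849 lncRNA genes and 8573 of 12648 genes. The share was lowest in RAB30-DT (30.1%). Retained intron forms were 6 of 169 divergent transcripts, 4 of them from GARS-DT, 1 from APCDD1L-DT and 1 from CSTF3-DT (CSTF3-DT-203, 6.78). They were 154 of 5953 transcripts of all lncRNA genes and 11560 of all 75165 listed transcripts. CTBP1-DT, APCDD1L-DT, OSER1-DT and MAP4K3-DT, which had 7 forms each, tied behind GARS-DT and GMDS-DT. Since reads shared by several annotated forms are divided by the authors' estimator, a value for 1 form is less certain than the sum of its gene.

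**Figure D3:**
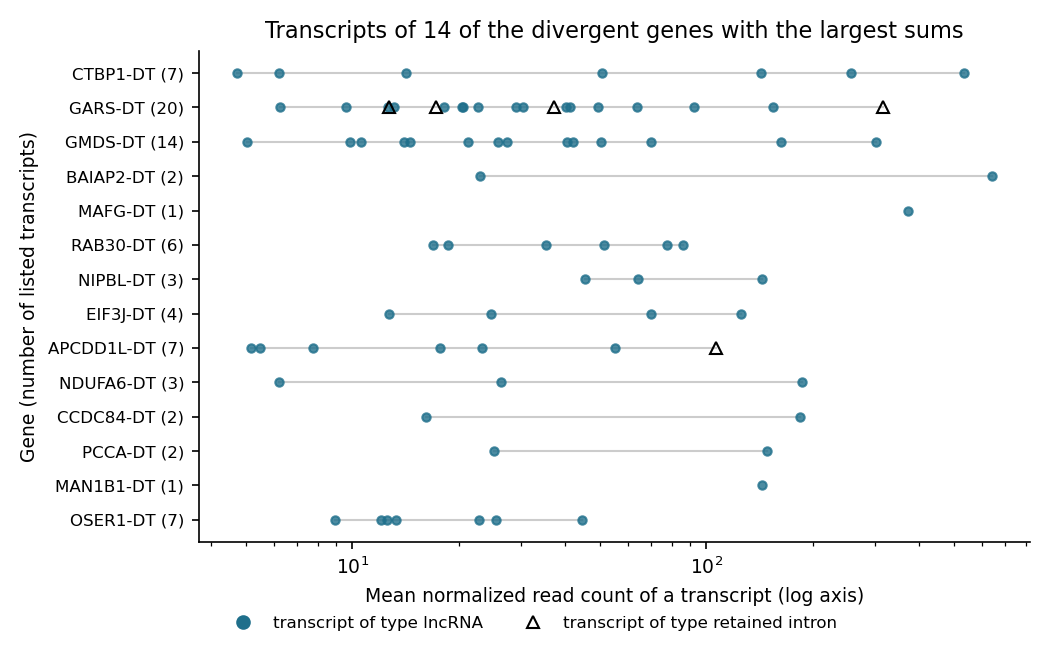
Mean normalized read count of each listed transcript (log axis) for 14 of the divergent genes with the largest sums, with the number of transcripts in brackets; filled points are transcripts of type lncRNA and open triangles retained intron forms. BAIAP2-DT has 1 leading form at 642, while the 20 forms of GARS-DT spread below 315.

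The partner gene was listed for all 62 divergent genes, for 61 under the symbol without -DT and for GARS-DT as GARS1, and all 62 partners are annotated as protein coding. The divergent sum was below the partner's sum in 60 pairs. The median was 4.77% of the partner's reads (quartiles 1.47% and 16.4%), and 23 divergent genes exceeded 10%. Partner sums had a median of 975, and the lowest was 20.5 for DPH6. These shares compare read counts of genes of different length.

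Only GMDS-DT and PCCA-DT had more reads than their partners. GMDS-DT had 797 against 447 for GMDS (178%), and PCCA-DT had 174 against 119 for PCCA (146%). RAB30-DT had 53.8% of the 532 reads of RAB30 and NDUFA6-DT 46.6% of the 471 of NDUFA6. CEBPA-DT (18.3 reads) had 40.0% of the 45.7 of CEBPA, which encodes a myeloid and adipose transcription factor, and EIF3J-DT 39.2% of the 593 of EIF3J. These shares stood well above the median pair.

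Other leading divergent genes had smaller shares. GARS-DT had 22.4% of the 4499 reads of GARS1, BAIAP2-DT 23.1% of the 2876 of BAIAP2 and CTBP1-DT 16.5% of the 6136 of CTBP1. MAFG-DT had 28.7% of the 1298 of MAFG. The lowest share was that of AFDN-DT, 0.0581% of the 6844 reads of AFDN. GAS6-DT (52.1 against 13023 for GAS6), SEPTIN9-DT (45.9 against 18060 for SEPTIN9) and CRIM1-DT (14.7 against 11702 for CRIM1) were each below 1% as well. Among these pairs, a large read count of the partner thus went with divergent sums from 3.98 to 1010. Over all 62 pairs the Spearman rank correlation of divergent and partner sums was 0.289, given as a description without a test. The strand setting of the authors' counting is not given in the sources used here, and in the 3 pairs whose starts overlap reads of the pair could be mixed if strand was not used.

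**Figure D4:**
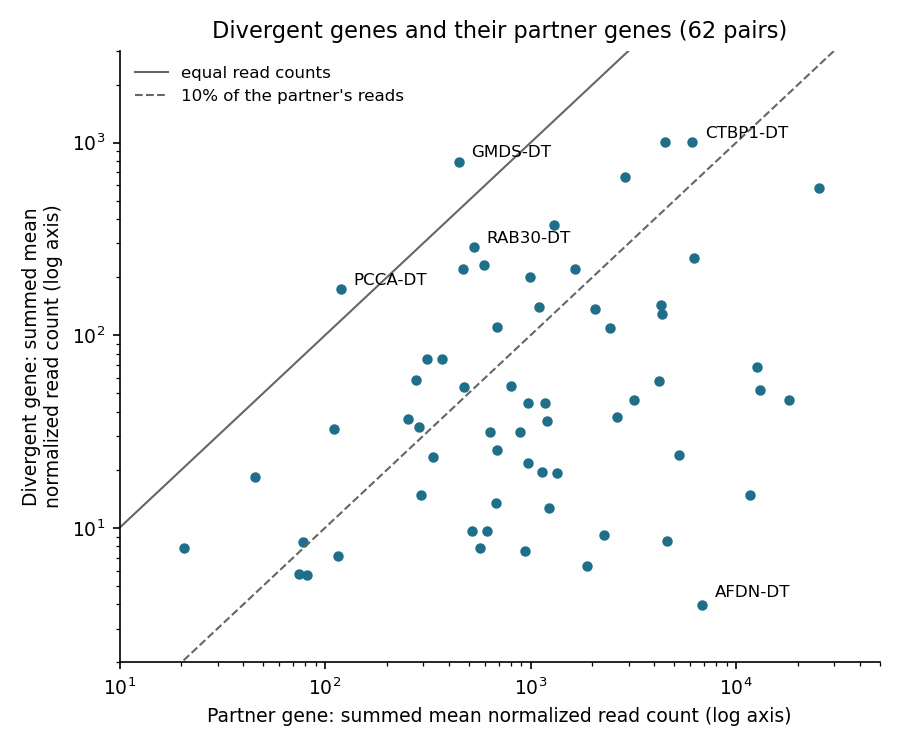
Summed mean normalized read count of each divergent gene against that of its partner gene for 62 pairs, both on log axes; each point is a pair, the full line marks equal read counts and the dashed line 10% of the partner's reads. GMDS-DT and PCCA-DT are the only points above the full line, and AFDN-DT lies lowest.

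Among the microRNA hosts MIR663AHG (ENSG00000227195.11, chr20:26187019-26209233) stood apart with a sum of 33221. MIR663AHG-312 had 27451 reads and MIR663AHG-223 had 5711, while the other 3 forms had 48.6, 5.26 and 4.50. MIR663AHG-312 ranked 72 of all 75165 transcripts and 2 of the 5795 lncRNA transcripts. Whether reads counted for MIR663AHG also fit other loci was not examined, so its sum and rank carry that uncertainty. Without MIR663AHG the median host transcript was 28.1.

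MIR4435-2HG (chr2:111195866-111495161) had 6472 reads on 41 transcripts, as many as any gene of the table. MIR4435-2HG-274 had 2511 (38.8%) and MIR4435-2HG-257 had 634, and from there the forms ran down to 4.64. Neighbouring forms could be as close as 63.1919 for MIR4435-2HG-217 and 63.1927 for MIR4435-2HG-266. The locus has a near-identical copy elsewhere on the same chromosome, CYTOR, listed with 2590 reads on 26 transcripts and looked up after the values were seen. How the reads were divided between both genes is uncertain. MIR4435-2 is its hairpin.

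MIR22HG, host of a microRNA widely found in differentiated tissues, had 851 reads, of which MIR22HG-208 had 567. MIR100HG, host of miR-100, let-7a-2 and miR-125b-1, had 445 reads divided over 12 forms, and its leading form MIR100HG-239 held only 19.2%, the lowest leading share of any member gene. MIRLET7BHG had 440 reads, of which MIRLET7BHG-201 had 288, and MIRLET7A1HG had 126, of which MIRLET7A1HG-203 had 95.7. Of the 4 hosts of the GAGGUAG seed these 3 had summed counts over 100, and MIR4458HG had 72.3. The host spans were 394543 bases for MIR100HG, 27932 for MIRLET7BHG and 34648 for MIRLET7A1HG, and the let-7a hairpin lay 276278, 26752 and 9699 bases from the host start in that order.

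MIR1915HG had 324 reads on 1 form. MIR34AHG, whose microRNA is a target of the p53 pathway, had 268, with 219 on MIR34AHG-204. MIR210HG, whose microRNA responds to hypoxia, had 259 and its hairpin lay 259 bases from the host start. MIR646HG had 247 on 8 forms and MIR3936HG had 191, with its leading form MIR3936HG-201 (95.5) annotated as a retained intron, the only such form among the host transcripts. MIR503HG had 183 (MIR503HG-208 68.7 and MIR503HG-207 61.3), MIR29B2CHG, host of miR-29b-2 and miR-29c, had 182 (MIR29B2CHG-203 159), and MIR600HG had 123. These hosts, with MIR663AHG to MIRLET7BHG and MIRLET7A1HG, make up the 14 above 100.

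Below 100 reads stood 15 hosts, of which 11 had between 16.0 and 72.3. MIR17HG carries the miR-17-92 cluster of 6 microRNA genes, which promotes proliferation, and had 39.8 reads, of which MIR17HG-201 had 34.9. MIR222HG, host of miR-221 and miR-222, had 67.7, nearly evenly divided as 34.6 and 33.1. MIR762HG had 65.7, MIR4453HG 62.9 and MIR3681HG 37.4, each with 1 microRNA gene. MIR181A1HG had 29.1, MIR193BHG 28.7, MIR924HG 21.3, MIR497HG 17.2 and MIR3142HG, host of miR-146a, 16.0. The miR-17 seed AAAGUGC was also that of miR-20a within the same host, and the seed GUGCAAA was shared by miR-19a and miR-19b.

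The lowest hosts included those of microRNAs best known from other cell types. The values of these hosts lie near 2.72, the lowest mean of any listed transcript, and a link to cell type was not tested. MIR137HG, host of the neuronal miR-137, had 8.67 reads and MIR378D2HG had 8.76. MIR194-2HG, host of miR-192 and miR-194 of liver and gut, had 6.88. MIR302CHG, host of the pluripotency cluster with 5 hairpins, had 4.38, and its miR-302a to miR-302d shared the seed AAGUGCU. Each of these 4 hosts had 1 listed transcript. Among all hosts 11 of 29 had 1 listed transcript (37.9%), against 76.7% of lncRNA genes and 37.7% of all listed genes. In the other 18 the leading form held a median 66.0% of the reads. That median was 58.4% in lncRNA genes and 59.8% in all genes with more than 1 transcript.

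**Figure D5:**
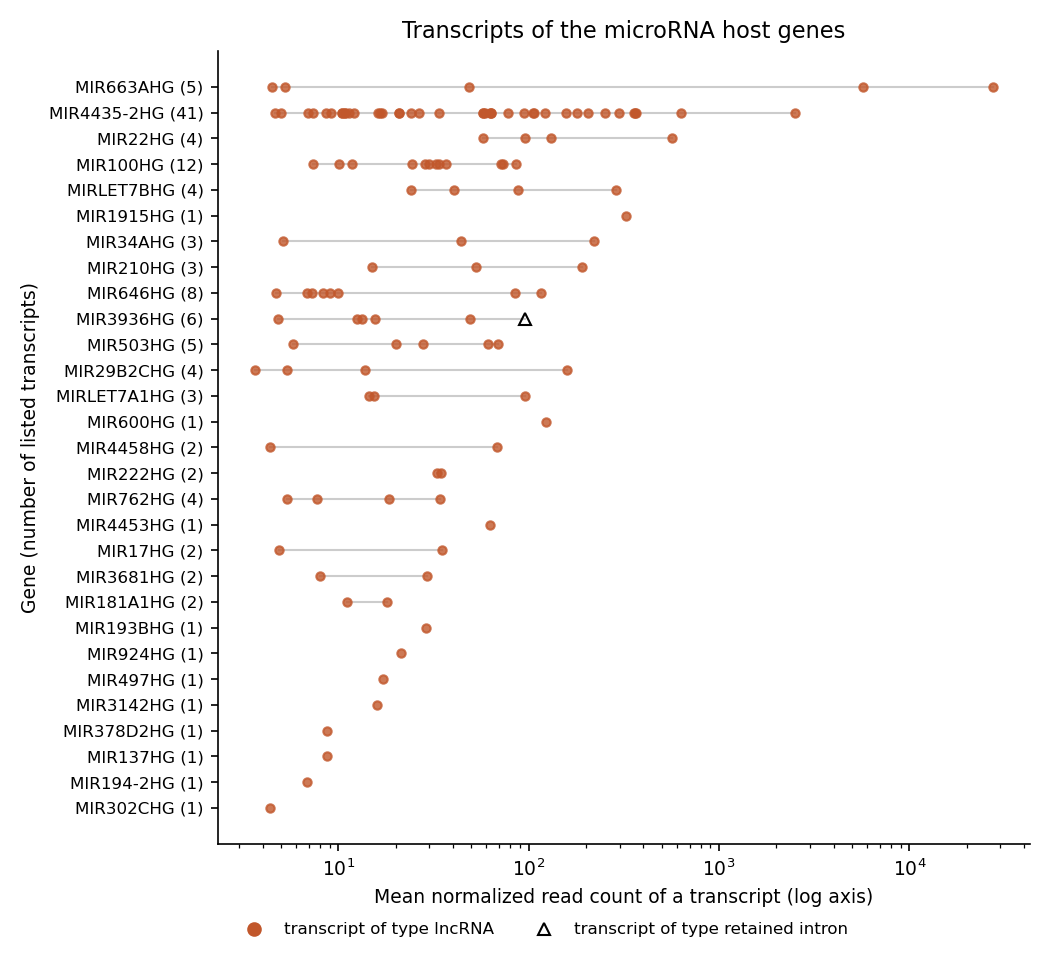
Mean normalized read count of each listed transcript (log axis) for the 29 microRNA host genes ordered by their sums, with the number of transcripts in brackets; filled points are transcripts of type lncRNA and the open triangle is the retained intron form of MIR3936HG. MIR663AHG has 2 forms, at 27451 and 5711, far above its other 3, whereas the 41 forms of MIR4435-2HG spread from 4.64 to 2511.

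Genes that act on these RNAs were listed throughout. All 13 genes of microRNA biogenesis were present, with DROSHA at 2950 reads, DGCR8 at 2859, DICER1 at 2054 and XPO5, which exports the hairpin, at 3400. All 10 genes put on the list for nuclear RNA decay were present, from RBM7 (274) to EXOSC10 (4001), with ZFC3H1 at 3249. That list is broad and also holds the RNA cleavage genes INTS11 and CPSF3. Of the m6A writers and reader all 9 were listed, METTL3 with 1123, METTL14 with 677 and YTHDC1 with 55488, the highest of the 32 genes, in libraries that all carried the YTHDC1 vector. The mean cannot separate vector reads from those of the cell's own gene.

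The identity of the line was checked on its markers. VIM (80785), AXL (63189), CD44 (14306) and CAV1 (7624) were high, while SPARC, also put on the list of high genes, had only 11.4. Of the low markers ESR1 and PGR were not listed, and CDH1 had 10.04 and EPCAM 78.3. The nuclear RNAs MALAT1 (45810) and NEAT1 (4322) were well read. Of 4 markers of other cells CD3E and ALB were not listed, PTPRC had 3.81 and the endothelial PECAM1 had 102.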

How the data were processed

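RIP-seq libraries of 2 Flag-YTHDC1 immunoprecipitates and 2 inputs of MDA-MB-231 cells were made after rRNA depletion with a stranded kit. The submitters' processing notes name FastQC 0.11.5, STAR 2.7.2b, RSEM 1.2.31, DESeq2 and the build GRCh38 (hg38), and the study's methods name a GENCODE transcriptome, a minimum of reads per transcript in part of the samples and RUVSeq. RSEM divides reads that fit several transcripts. The deposited table gives per transcript a mean signal, which is the authors' mean normalized count over all 4 libraries. Its other numeric columns hold the authors' own comparison of IP with input (log2 fold change, its standard error, p-value and adjusted p-value) and were not used. It has 0 columns of single libraries, so depth per library is unknown, and without the comparison columns no error, interval or test is given.

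Members were found by gene symbol and their means were summed per gene in Python 3.11.15 with pandas 2.3.3 and numpy 2.4.6. Figures were drawn with matplotlib 3.10.9, and the rank correlation was computed with scipy 1.17.1. The text names all listed microRNA hosts, the 15 divergent genes with the largest sum (1 of them is not reported here, nor is 1 marker of the line), the 3 with most transcripts (a tie for the last place is given in full) and the lowest; partner genes, SEPTIN9-DT, EDIL3-DT, MMADHC-DT, ODC1-DT, RELA-DT, CEBPA-DT, GAS6-DT, CRIM1-DT, CSTF3-DT and MAP4K3-DT were named after their values were seen. The members and gene lists were chosen with earlier results of these data known. Coordinates, microRNAs and promoter windows of 300.0 bases came from RefSeq (GRCh38.p14), matched by symbol or synonym, with microRNA genes placed by their hairpin or, where the sequence table gives only mature forms, by the RefSeq gene span, with the nearest pair of starts for distances and the first window per gene for motifs. The sum, motif and distance functions were checked on simulated data. Minimum means of 10 and 100, lncRNA-type transcripts only, sums per gene, omission of the leading gene and older partner symbols were tried as alternatives.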

Additional observations from a re-analysis of the deposited data

How the results depend on the processing

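With a minimum mean of 10 the median divergent transcript rose from 18.7 to 26.9 and the median host transcript from 28.4 to 48.9, and with a minimum of 100 they were 163 (19 transcripts) and 235 (24 transcripts). Both rises follow from removing the low values. Per gene instead of per transcript there were 62 divergent values with a median of 41.0 and 29 host values with a median of 72.3. Among host transcripts of type lncRNA the median was 28.1, and without MIR663AHG it was also 28.1. Without CTBP1-DT the divergent median was 18.7. The median share of the leading form was 56.3% in divergent genes and 64.8% in host genes at a minimum mean of 10. Both the divergent gene and its partner by symbol had sums of at least 100 in 18 pairs. Under every alternative that was run the host median stayed above the divergent median. No paired analysis was possible because the table gives 1 mean over all 4 libraries, and for the same reason leaving out a replicate was not run. The comparison of IP with input was not run because the authors' own comparison columns were not used and no values per library were at hand. Depth limits the lowest members most, since a mean of a few reads in 4 libraries has a large counting error that cannot be computed from the table.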
